A study of Homo sapiens with 4 samples.

Results

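The Siglec receptors described here are CD33, CD22, SIGLEC1, SIGLEC5, SIGLEC6, SIGLEC7, SIGLEC8, SIGLEC9, SIGLEC10 and SIGLEC11, chosen by their gene name on the array, and they make up 10 of the 27193 gene names that the array's non-control probes carry. Each of the 10 genes was measured by 1 probe, printed once. The cells were THP1, a human monoblastic acute myeloid leukemia line that carries the MLL-AF9 fusion gene, transfected once with 30 nM of a miRNA mimic, kept in medium with reduced serum and harvested on day 2. The miR-511 mimic group received the hsa-miR-511-5p precursor and the control mimic group received negative control #1, each in 2 independent experiments, giving 4 arrays in all. All 4 arrays are of 1 cell line, so the values say nothing of other myeloid cells, and a probe signal measures transcript only and not receptor on the surface.

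Siglecs are membrane lectins of the immunoglobulin superfamily that bind sialic acids, the sugars at the outer ends of glycan chains. CD33, CD22 and most of their relatives carry an ITIM in the cytoplasmic tail, a tyrosine motif that is phosphorylated by Src family kinases and then recruits the phosphatases SHP-1 and SHP-2, which dampens signalling from activating receptors. CD33 marks myeloid progenitors, monocytes and most acute myeloid leukemias, where it is an antibody target. CD22 belongs to B cells, SIGLEC8 to eosinophils and mast cells and SIGLEC1 (sialoadhesin), which has no ITIM, to macrophages.

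The sequence of the transfected miRNA is shown because the mimic comparison turns on it. RefSeq places it on the plus strand at chr10:17845122-17845142 of GRCh38.p14, and the capitals mark the seed, bases 2 to 8, with which a miRNA pairs to its targets.
hsa-miR-511-5p: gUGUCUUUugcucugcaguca

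Of the 10 Siglec probes 1 held the complement of this seed, AAAGACA, and 331 of all 34127 probes (0.97%) held it too. The opposite strand of the motif, TGTCTTT, was in 0 Siglec probes and in 332 of all probes (0.973%). The match lay in the SIGLEC6 probe, at bases 38 to 44 of its 60, and its capitals mark those 7 letters within bases 27 to 56. A probe covers a short stretch of a transcript, so the count describes these windows and not the whole transcripts.
SIGLEC6 probe: tctcttcttatAAAGACActagtcatattg

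The first 30 bases of the probes of SIGLEC5, SIGLEC7 and SIGLEC9 are shown because these are close paralogs among the myeloid Siglecs, whose signals can be read as separate genes only if their probes differ. The longest run of bases that any Siglec probe shared with another of the 18 Siglec family probes was 9, between SIGLEC10 and the pseudogene SIGLECP3, and it was 7 or 8 for the others. The probes were not compared with whole transcripts of the paralogs, so cross-hybridization to a related transcript was not tested.
SIGLEC5 probe: gaagaacaaaaggagctccattatgcctcc
SIGLEC7 probe: tcaaaccctctggtactggagctgcaagtg
SIGLEC9 probe: ctctcagcaggtctacctgaacgtctccct

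By the coordinates in the files, on hg19, 7 of the 10 probes lay within 485 kb of chromosome 19, from the SIGLEC9 probe at chr19:51630519-51631230 to the SIGLEC5 probe at chr19:52115544-52115603. The SIGLEC7 probe at chr19:51649252-51649311, the CD33 probe at chr19:51742998-51743057, the SIGLEC10 probe at chr19:51914324-51914383, the SIGLEC8 probe at chr19:51954778-51954837 and the SIGLEC6 probe at chr19:52023035-52023094 lay between them. The SIGLEC11 probe was at chr19:50453199-50453258, the CD22 probe at chr19:35837555-35837614 and the SIGLEC1 probe at chr20:3668218-3668277. The SIGLEC9 probe has 60 bases but spans 712 bases of the genome, so it joins parts of separate exons. Whether the other probes lie in coding sequence or in a UTR was not determined here.

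Over the 4 arrays, 64.8 to 69.3% of the probes gave a signal well above background by the scanner software, and no non-control spot was saturated. The arrays were hybridised on 1 slide. Myeloid markers were present: 9 of 12 genes of that list, among them SPI1, CD68, CSF1R, MPO and ELANE, had a probe well above background on all 4 arrays, MEIS1 had a probe above it on 2 arrays, and LYZ and FCGR1A had no probe of that name.

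Of the Siglec probes, 6 were well above background on all 4 arrays (CD33, SIGLEC1, SIGLEC6, SIGLEC7, SIGLEC9 and SIGLEC10). SIGLEC5 was so on 3 arrays, SIGLEC11 on 1, and CD22 and SIGLEC8 on 0 arrays. Since probes differ in how brightly they report a transcript, the signal of a gene was not set against that of another gene. No Siglec spot was marked as an outlier.

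**Figure D1:**
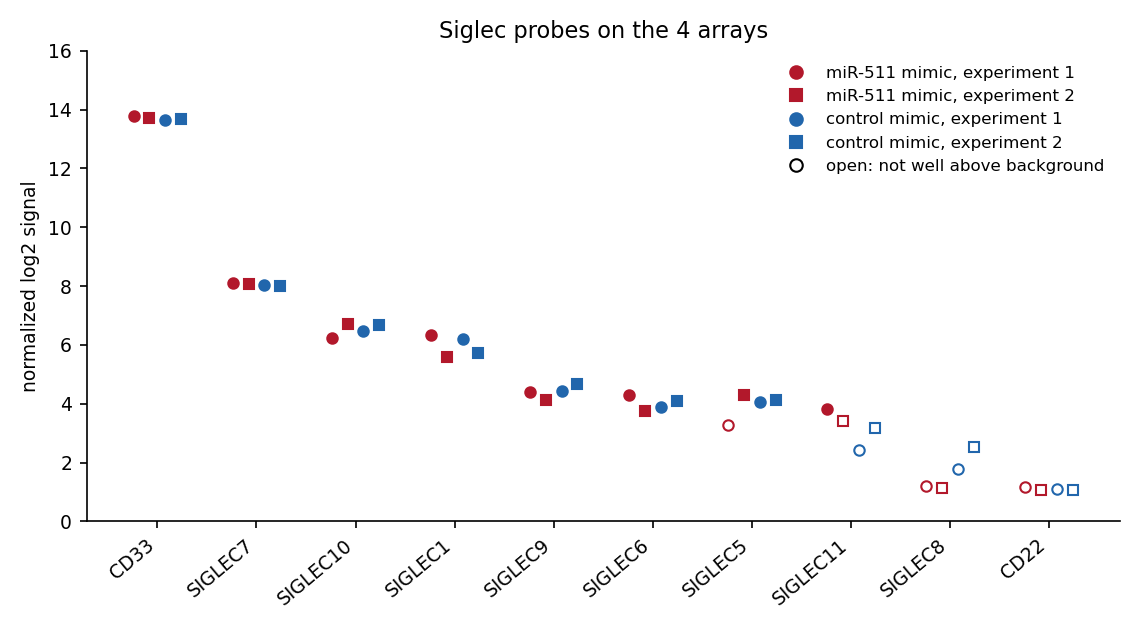
Normalized log2 signal (vertical axis) of the 10 Siglec probes (horizontal axis) on the 4 arrays; red points are the miR-511 mimic, blue the control mimic, circles experiment 1 and squares experiment 2, and open points are not well above background. The CD33 points lie between 13.66 and 13.79 and all CD22 points are open; heights of different probes are not comparable as transcript levels.

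The first comparison asked whether miR-511 changed Siglec transcripts in THP1 cells. Among the 7 tested Siglec probes 0 passed the unadjusted threshold of 0.05 (limma), against 498 of the 22638 tested probes (2.2%). With so small a share called on the whole array, 0 of 7 does not set the Siglecs apart from other probes. Nor does it show that their transcripts were unchanged. The narrowest limma interval of the log2 difference between mimics was -0.19 to 0.31, for SIGLEC7. The widest was -1.29 to 0.68, for SIGLEC5, so sizeable changes were not excluded for every gene. After Benjamini-Hochberg adjustment over all tested probes 0 passed, and the smallest adjusted p on the whole array was 0.790. The median log2 fold change (log2FC, miR-511 mimic minus control mimic) was 0.0096 over the 7 Siglec probes and 0.0098 over all tested probes, and the median size without sign was 0.079 in both. The sign was the same in both experiments for 3 of the 7 Siglec probes, against 51.0% of all tested probes. In a bulk extract, fewer cells with a transcript and less of it per cell cannot be told apart.

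CD33, the antibody target, gave a processed signal of 12248 on the miR-511 array and 13479 on the control array of experiment 1, and of 14660 and 13357 on those of experiment 2. After quantile normalization the log2 values were 13.79 and 13.71 with the miR-511 mimic and 13.66 and 13.68 with the control mimic. The miR-511 values were thus both higher than the control values, by 0.13 in experiment 1 and 0.027 in experiment 2, although the processed signal in experiment 1 was the lower one before the arrays were scaled. The log2FC was 0.079 (SE 0.093, adjusted p = 1.000 by limma, n = 2 per mimic), with a 95% interval of -0.18 to 0.33 that holds 0. Over the 4 arrays the whole spread of CD33 was small on this scale, and spots of 1 probe at its level differed within an array by an SD of 0.089.

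SIGLEC7, an inhibitory receptor of NK cells and monocytes, behaved in the same narrow range. It read 8.10 and 8.07 with the miR-511 mimic and 8.05 and 7.99 with the control mimic, in experiments 1 and 2. All 4 values lay within about 1 SD of the difference of 2 spots at that level, which was 0.11. The log2FC was 0.063 (SE 0.091), with a 95% interval of -0.19 to 0.31.

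SIGLEC9, an inhibitory receptor of monocytes and neutrophils, showed the largest fall in 1 experiment among the Siglec probes above background on all 4 arrays. Its values were 4.41 and 4.13 with the miR-511 mimic and 4.42 and 4.67 with the control mimic. The difference was -0.0083 in experiment 1 and -0.54 in experiment 2, so the lower value rested on experiment 2. The log2FC was -0.28 (SE 0.16), with a 95% interval of -0.71 to 0.16 and an unadjusted p of 0.154 by limma. It was -0.086 with normexp background correction, which adds an offset of 50 to every signal, and -0.42 to -0.14 with 1 array left out. Processed signals were 18.1 to 25.0, against a lowest signal called well above background of 9.13 to 10.9 per array.

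SIGLEC5, an inhibitory receptor of monocytes and neutrophils, had the widest interval. It read 3.29 and 4.29 with the miR-511 mimic and 4.05 and 4.13 with the control mimic, and the array with the value of 3.29 was the one where it was not well above background. The groups overlapped, with a difference of -0.76 in experiment 1 and 0.15 in experiment 2. SIGLEC5 passed the filter only through the control arrays, where its mean was higher (4.09 against 3.79). The fitted log2FC was -0.30 (SE 0.36), with a 95% interval of -1.29 to 0.68, and is a description and no evidence of a fall. It rests in part on the value that was not well above background, and without that array it was 0.20 (unadjusted p = 0.232, adjusted p = 1.000 by limma).

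SIGLEC6, a receptor of placental trophoblast and mast cells whose probe holds the seed match, moved in opposite directions in the 2 experiments. It read 4.28 and 3.75 with the miR-511 mimic and 3.88 and 4.08 with the control mimic. The difference was 0.40 in experiment 1 and -0.33 in experiment 2, and spots of 1 probe at this level differed by an SD of 0.37. The log2FC was 0.034 (SE 0.22), with a 95% interval of -0.56 to 0.63.

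SIGLEC10, an inhibitory receptor of B cells and myeloid cells that binds CD24, read 6.22 and 6.70 with the miR-511 mimic and 6.46 and 6.67 with the control mimic. The groups overlapped, with a log2FC of -0.10 (SE 0.20, 95% interval -0.66 to 0.46). SIGLEC1 read 6.34 and 5.59 with the miR-511 mimic and 6.19 and 5.72 with the control mimic. These groups overlapped too, with a log2FC of 0.0096 (SE 0.32, 95% interval -0.86 to 0.88). For both genes the values of a mimic lay further apart, between experiments, than the means of the mimics did. The SEs above leave that experiment difference in the error. With the experiment as a replicate block the SE was 0.11 for each gene. Neither passed then (blocked limma fit, unadjusted p = 0.420 for SIGLEC10 and 0.935 for SIGLEC1).

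SIGLEC11, an inhibitory receptor of macrophages and microglia, was not tested. It was well above background on the miR-511 array of experiment 1 only, at 3.81, and read 3.40 on the other miR-511 array and 2.44 and 3.18 on the control arrays. Since 3 of the 4 values were not well above background, no fold is given.

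SIGLEC8 and CD22 stayed near background on all 4 arrays. SIGLEC8 read 1.21 and 1.13 with the miR-511 mimic and 1.79 and 2.52 with the control mimic, and both miR-511 values were surrogates, numbers that the scanner software substitutes for a signal too close to background. CD22 read 1.08 to 1.16, all 4 of them surrogates. No fold is given for either gene.

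**Figure D2:**
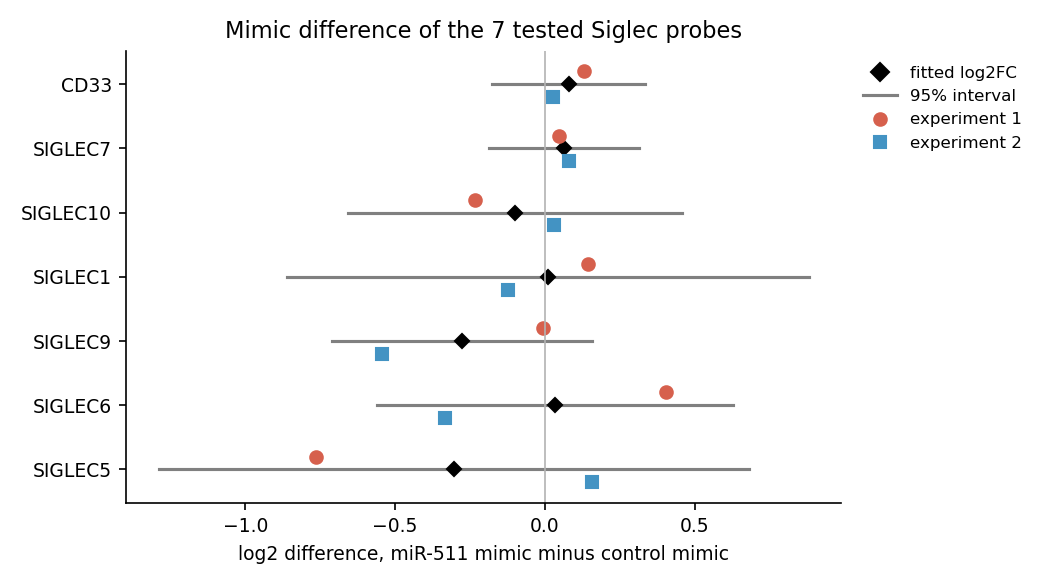
Log2 difference between the miR-511 mimic and the control mimic (horizontal axis) for the 7 tested Siglec probes; black diamonds are the fitted log2FC, grey bars its 95% interval, circles experiment 1 and squares experiment 2. All 7 bars hold 0, and the experiments lie on opposite sides of 0 for SIGLEC10, SIGLEC1, SIGLEC6 and SIGLEC5.

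The other genes of the Siglec system were read in the same comparison. Over 58 further genes of Siglec signalling and of sialic acid metabolism, 58 probes of 48 genes were tested, and 0 of them passed the unadjusted threshold. Of the tested probes 35 were higher and 23 lower with the miR-511 mimic, with a median log2FC of 0.019. With the experiment as a replicate block, 2 probes passed, against 894 of 22638 tested probes (3.95%). These were SOCS3, a suppressor of cytokine signalling that binds the phosphorylated CD33 tail, with a log2FC of 0.28 (blocked limma fit, unadjusted p = 0.0357, adjusted p = 0.969), and ST8SIA1, which adds a second sialic acid to gangliosides, with a log2FC of -0.59 (blocked limma fit, unadjusted p = 0.00538, adjusted p = 0.969). ST8SIA1 read 4.82 and 4.41 with the miR-511 mimic and 5.44 and 4.97 with the control mimic, and missed the threshold without the block (limma, unadjusted p = 0.0627, adjusted p = 1.000). The other ST8SIA1 probe was well above background on 0 arrays and was not tested.

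The other Siglec family genes MAG, SIGLEC12, SIGLEC14, SIGLEC15 and SIGLEC16 were all well above background on all 4 arrays, in 7 probes, of which 0 passed the test. SIGLEC14, an activating partner of SIGLEC5 that signals through TYROBP, had 2 probes with log2FC of 0.13 (SE 0.13) and -0.038 (SE 0.13). SIGLEC16, the activating partner of SIGLEC11, had 2 probes with log2FC of 0.019 (SE 0.092) and 0.036 (SE 0.095). The probes named for both activating genes were thus well above background, and none of them passed the test. Whether these probes also bind SIGLEC5 or SIGLEC11 transcripts was not tested.

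Among phosphatases and adaptors, 8 of 10 genes were tested and 0 passed. PTPN6, which encodes SHP-1, had a log2FC of -0.027 (SE 0.11), and PTPN11, which encodes SHP-2, had 0.087 (SE 0.089) and -0.039 (SE 0.11) in its 2 probes. TYROBP, the adaptor DAP12, had 0.14 (SE 0.25). Among the kinases, 9 of 10 genes were tested and 0 passed, with LYN at 0.013 (SE 0.094) and SYK at 0.043 (SE 0.15).

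For the sialic acid ligands, 9 of 9 genes of synthesis and activation, 15 of 20 sialyltransferase genes and 2 of 4 sialidase genes were tested, with 0 calls. GNE, the key enzyme of sialic acid synthesis, had a log2FC of 0.060 (SE 0.15), CMAS, which activates the sugar, had -0.11 (SE 0.13), and SLC35A1, its Golgi transporter, had -0.022 (SE 0.10) and -0.092 (SE 0.11). The sialyltransferases ST3GAL1, ST6GAL1 and ST8SIA4 had -0.24 (SE 0.10), 0.019 (SE 0.13) and 0.0041 (SE 0.18), and the sialidase NEU1 had -0.14 (SE 0.19). Among the ligand genes named in this paragraph ST3GAL1 had the smallest p, lower with the miR-511 mimic in both experiments, at an unadjusted p of 0.0772 (limma). The sialyltransferase ST8SIA1, given above, had a smaller one of 0.0627 (limma).

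The second comparison asked whether Siglec values differed between the independent experiments, whatever the mimic. Of the 7 tested Siglec probes 2 passed the unadjusted threshold, SIGLEC1 and SIGLEC10, against 3074 of 22638 tested probes (13.6%). With adjustment over all tested probes 0 passed, and the smallest adjusted p on the array was 0.215. Of the 58 tested probes of the Siglec system, 13 (22.4%) passed the unadjusted threshold, with 1 gene counted in 2 probes. Of the 13, 12 were lower and 1 higher in experiment 2. The directions of the called probes over the whole array were not counted, so this split cannot be called particular to the Siglec system. Among the lower ones were the adaptor TYROBP (difference -0.44), the kinase SYK (-0.23), GNE (-0.26), ST8SIA4 (-0.33) and NEU1 (-0.34), all as log2 differences.

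SIGLEC1 was lower in experiment 2 with both mimics, by 0.74 on the miR-511 arrays and 0.47 on the control arrays (log2 scale). Both values of experiment 2, 5.59 and 5.72, lay below both values of experiment 1, 6.34 and 6.19. The fitted difference was -0.61 (SE 0.094, unadjusted p = 0.00312, adjusted p = 0.226 by limma), with a 95% interval of -0.87 to -0.34. It kept its side of the unadjusted threshold in each fit with 1 array left out, at -0.68 to -0.54. With normexp background correction the difference was smaller, -0.26, and still past that threshold.

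SIGLEC10 went the other way and was higher in experiment 2, by 0.48 on the miR-511 arrays and 0.22 on the control arrays. Its values were 6.70 and 6.67 in experiment 2 and 6.22 and 6.46 in experiment 1, without overlap. The fitted difference was 0.35 (SE 0.11, unadjusted p = 0.0308, adjusted p = 0.335 by limma), with a 95% interval of 0.053 to 0.65. It was not past the threshold without either miR-511 array, nor without the control array of experiment 2, nor with 75th percentile scaling (0.30) or an ordinary equal-variance test over arrays. With normexp background correction it was 0.18 and past the threshold.

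CD33 and SIGLEC7 differed little between experiments, by -0.030 (95% interval -0.26 to 0.20) and -0.043 (95% interval -0.25 to 0.16). SIGLEC9 and SIGLEC6 differed by -0.013 and -0.17, with the mimics on opposite sides of 0. SIGLEC5 differed by 0.54 (SE 0.28, 95% interval -0.25 to 1.34), with 1.00 on the miR-511 arrays and 0.082 on the control arrays. The miR-511 value of experiment 1 was the one not well above background, and without that array the difference was 0.16 (unadjusted p = 0.266, adjusted p = 0.692 by limma). With normexp background correction it was 0.096.

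**Figure D3:**
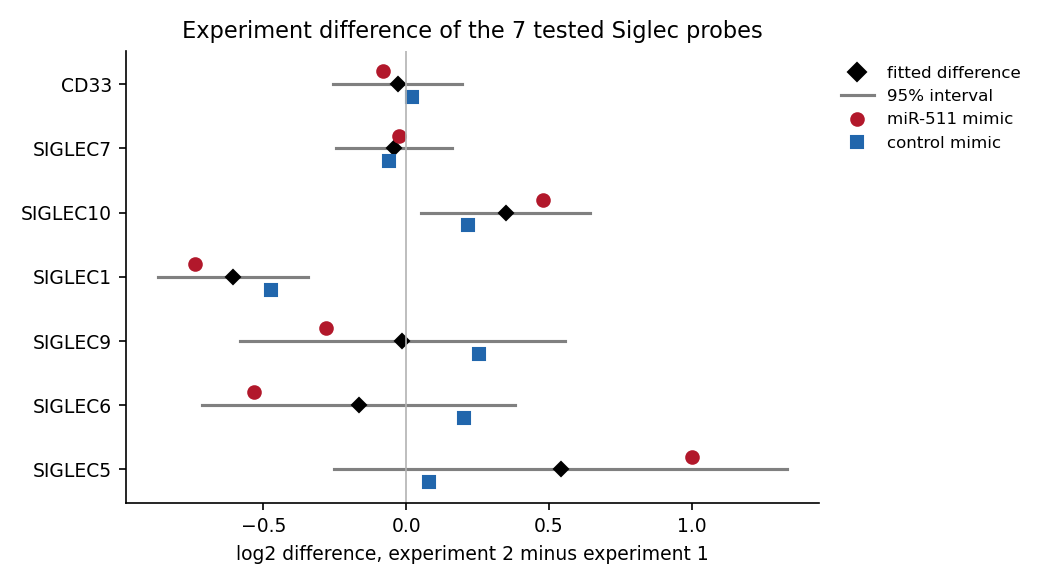
Log2 difference between experiment 2 and experiment 1 (horizontal axis) for the 7 tested Siglec probes; black diamonds are the fitted difference, grey bars its 95% interval, circles the miR-511 mimic and squares the control mimic. The bars of SIGLEC1 (below 0) and SIGLEC10 (above 0) do not hold 0.

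Markers of other cells were read beside these values. Of the eosinophil, basophil and mast cell list, PRG2 and EPX were higher in experiment 2, by 1.68 (limma, unadjusted p = 2.38e-05, adjusted p = 0.215) and 0.95 (limma, unadjusted p = 0.00126, adjusted p = 0.218). HDC differed by 0.10, CPA3 by -0.19 and the 2 probes of MS4A2 by -0.15 and -0.051, all short of the threshold. CLC and IL5RA were on no array above background. The summed normalized signal of the 7 genes was 534 to 544 in experiment 1 and 978 to 1063 in experiment 2, and PRG2 and EPX made up that rise. The myeloid markers CD68 and CSF1R were lower in experiment 2, with differences of -0.29 and -0.25 (limma, unadjusted p = 0.0253 and 0.0315, adjusted p = 0.316 and 0.336). The other tested genes of that list were short of the threshold. Lower were SPI1 (-0.18), CD4 (-0.14), ITGAM (-0.13), ELANE (-0.097) and HOXA9 (-0.10 and -0.034 in its 2 probes). Higher were CD14 (0.21) and MPO (0.12). The summed signal of that list, most of it from ELANE, was 155474 to 157588 in experiment 1 and 137644 to 154566 in experiment 2. Their part in the SIGLEC1 and SIGLEC10 differences was not tested.

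The detection of genes in the cell type lists was also read beside that of CD22, SIGLEC1 and SIGLEC6. The B cell genes CD79A, CD79B and PAX5 were well above background on all 4 arrays, MS4A1 and CR2 were on 0 arrays, and CD22 was on 0 arrays. Of the tissue macrophage genes, MARCO and VSIG4 were on all 4 arrays and CD163, C1QA and C1QB on 0 arrays, while MRC1 had no probe of that name, and SIGLEC1 was on all 4. Of the microglia genes TMEM119 was on all 4 arrays and P2RY12 and SALL1 on 0 arrays, and of the oligodendrocyte genes MBP and MOG were on all 4. Of the T and NK cell genes CD3D, CD8A and NKG7 were on all 4 arrays, CD3E on 3, and NCAM1 and KLRD1 on 0 arrays. Of the trophoblast genes GCM1 was on all 4 arrays, CGB and PSG1 each on 1 and CGA on 0, while SIGLEC6 was on all 4.

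The pattern of CD33 over the 4 arrays was most like that of CDC42EP5, HMGB1 and CAPNS1 among named genes above background on all of them. After each probe was centred on its own mean, the root mean square difference from CD33 over the 4 arrays was 0.0037, 0.0039 and 0.0043 on the log2 scale. Over all probes above background, 2632 lay within 0.05 of CD33 by this measure, so the nearness to these genes is shared by many probes.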

How the data were processed

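RNA of 4 THP1 cultures (2 mimics, 2 independent experiments) was hybridised by the authors on 1-colour Agilent 4x44K v2 arrays with Cy3. The deposited scanner files hold intensity values per spot (the background-corrected processed signal, the mean signal and the local background). The submitters' processing notes name Agilent Feature Extraction 10.5.1.1 and limma, whereas the file headers give 10.7.3.1. The deposited series table holds log2 values that the authors normalized with the quantile method, as their methods state. It was used as an alternative, with its normalization kept. The precision is limited by the number of arrays, 2 per mimic.

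Here the log2 processed signals of non-control spots, without the 232 to 301 spots per array marked as outliers, were quantile normalized with limma 3.58.1 in R 4.3.3, and spots of a probe were averaged. Tested were the probes that had a value on all 4 arrays and passed the scanner's background call on both arrays of the miR-511 mimic, of the control mimic, or of both (22638 of 34127), with lmFit and eBayes without a block. The methods name limma and quantile normalization and no block. Unadjusted p below 0.05 was the threshold, with Benjamini-Hochberg adjustment over all tested probes. With 2 arrays against 2, a permutation test over samples cannot go below p = 0.333. Intervals are 95% limma intervals. The fit was tested on simulated data.

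The groups come from the titles. The experiment numbers pair the arrays, since the experiments were independent: the deviations of same-numbered arrays from their mimic means correlated at 0.271 over tested probes. Blocked values stand beside a result where they change its call, and beside the mimic differences of SIGLEC10 and SIGLEC1. A slide block could not be fitted, as all arrays share 1 slide. Member genes, pathway lists and marker lists were chosen with earlier results of these data known. The pathway genes named are those with a called probe, which were 0 without the block, and up to 3 well detected genes of each list. SOCS3, ST8SIA1, SIGLEC14, SIGLEC16 and the markers with values were named after their values were seen. Gene names are those of the files, and all 10 Siglec accessions matched the same symbol in RefSeq (GRCh38.p14). miRNA sequence is from RefSeq, probe sequences from the files. Alternatives were the 75th percentile scaling, normexp background correction (offset 50), marked spots kept, the deposited table, testing all probes, testing those above background on all 4 arrays, an intensity trend, an ordinary equal-variance test over arrays (the methods name a second test over identical replicate probes, which probes printed once do not allow), the replicate block and leaving out each array. Some genes of the lists are counted but not reported by name here.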

Additional observations from a re-analysis of the deposited data

How the results depend on the processing

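Of 90 refitted mimic differences of the 7 tested Siglec probes, 80 kept their direction and their side of the unadjusted threshold, 9 turned direction and 1 newly passed. Of 90 refitted experiment differences, 78 kept both, 6 turned, 5 lost the threshold and 1 newly passed. The cause was not tested for any of them. With the 75th percentile scaling the SIGLEC6 log2FC was -0.025 and 1 Siglec probe was called between experiments, SIGLEC10 being lost. With normexp correction the SIGLEC5 log2FC was 0.020, and the experiment differences of SIGLEC6 and SIGLEC9 were 0.0085 and 0.038. Without a filter on dim probes 1 Siglec probe was called between mimics, SIGLEC8, which was above background on no array. An ordinary equal-variance test over arrays called 3 pathway genes between mimics (NANP, PTPN11 and ST6GALNAC4, all higher) and 1 Siglec probe between experiments, with SIGLEC10 lost again. The replicate block called 2 pathway genes, SOCS3 and ST8SIA1, left the Siglec counts at 0 between mimics and 2 between experiments, and changed no other call of a pathway gene between mimics.

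Leaving out each array in turn moved the log2FC of SIGLEC6 from -0.23 to 0.30, of SIGLEC10 from -0.34 to 0.14, of SIGLEC5 from -0.80 to 0.20 and of SIGLEC1 from -0.36 to 0.38. The experiment difference ranged from -0.37 to 0.035 for SIGLEC6, from -0.095 to 0.035 for CD33 and from -0.29 to 0.26 for SIGLEC9. Siglec calls ranged from 0 to 1 between mimics (1, SIGLEC5, without the miR-511 array of experiment 2, where its only miR-511 value was not well above background) and from 1 to 3 between experiments (3 without the control array of experiment 1, with SIGLEC5 resting on that same value, and 1 without any other array), and pathway genes called ranged from 0 to 4, with 4 without the miR-511 array of experiment 1. In such fits the lone array of a mimic is assumed to vary like the others. The CD33 log2FC stayed between 0.038 and 0.12. SIGLEC5, SIGLEC6 and SIGLEC9 lay near the lowest signal above background, which limits their precision.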

Other observations

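Among the cell type markers read beside the Siglecs, 2 of 32 tested probes (6.25%) passed the unadjusted threshold between mimics, against 2.2% of all tested probes. CPA3, a mast cell protease, read at least 4.11 with the miR-511 mimic and at most 3.72 with the control mimic and was well above background on 3 arrays. It was tested through the miR-511 arrays, where it was higher, so no fold is given for it. The share of 6.25% counts this probe, so it is a description and no evidence that the markers changed. GCM1, a trophoblast transcription factor, read 4.88 and 4.98 with the miR-511 mimic and 4.04 and 4.51 with the control mimic, a log2FC of 0.66 (SE 0.19, unadjusted p = 0.0240 by limma). GCM1 was higher with the miR-511 mimic in 2 of 2 experiments. Neither CPA3 nor GCM1 passed the adjustment over all tested probes.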
